A study of Oryza sativa with 3 samples.

Results

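Lone nucleosomes are nucleosome calls that stand by themselves between open gaps, with no other call close by on either side. They were chosen by measured values: the distance from the centre of the call to the centre of the previous call and that to the next one both had to be over 240 bp and under 422 bp, and 1 or more single-end reads had to be centred within 20 bp of the centre of the call. Of the 3456855 calls on the 12 rice chromosomes, 4734 met the rule, which is 0.137%. Both distances were in range for 6456 calls, of which 1722 had no such read. Both libraries were made from leaf tissue of 2-week-old seedlings of the rice cultivar Nipponbare, whose nuclei were digested with micrococcal nuclease (MNase), and no condition or genotype was compared. The first biological replicate was sequenced as single-end reads in 2 technical replicates, which the deposited positions do not tell apart. The second biological replicate was sequenced as read pairs and gave the calls, each 120 bp long and with a score from nucleR, the program that made them. The 26516807 single-end reads amount to 71.3 reads per kb, so that a stretch of 41 bp around a random position would have 2.92 read centres, and 14.5% of these reads repeated a position and strand already taken. With 1 biological replicate in each form there was no test over samples. Differences below are descriptions, and the 12 chromosomes, which are not replicates, show how even a value was within a library.

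A nucleosome is a stretch of DNA wrapped around a core of histone proteins. MNase cuts the linker DNA between nucleosomes and spares the wrapped DNA, so that forward reads start at one edge of a nucleosome and reverse reads at the other. In gene-rich chromatin nucleosomes often stand in arrays with a regular spacing, and such arrays are interrupted where regulatory proteins hold the DNA, as in active promoters. These interruptions can be freely cut by DNase I (DNase I hypersensitive sites, DHSs). The study asked how nucleosomes are placed around DHSs. DHSs were not analysed here, and neither were gene positions or sequences, because the gene table at hand refers to another assembly than the reads (TIGR release 5).

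Calls of 3 kinds were set beside the lone calls, each with the same requirement of 1 or more reads. Calls with 1 gap (42961) had a gap, a distance within these limits, on one side only and a distance over 120 and up to 240 bp on the other. Array calls (64541) had both distances between 150 and 210 bp. Other calls (2793509) were all calls outside the rule, and they include the first 2 kinds.

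Open gaps were rare. Of the 3456843 distances between adjacent calls, 93933 or 2.72% were within the limits. Among calls with such a gap on the left, 6.87% had one on the right as well, so that a gap was more frequent beside a gap than among all distances. However, 76.8% of all distances were 120 bp or less, between calls too close for a gap. The frequency among the remaining distances was not compared, so the higher share does not by itself show that gaps cluster. The distances beside lone calls had a median of 317 bp, with quartiles of 273 and 356 bp, and were 318 bp on the left and 316 bp on the right in the median. The left and right distance of the same call differed by 46 bp in the median and were hardly correlated (Pearson's r = 0.0906 over the 4734 calls). The distances did not simply become rarer with length. They were most frequent up to 260 bp (16.1% of the distances beside lone calls), less frequent over 280 and up to 300 bp (10.7%), and again more frequent over 300 and up to 320 bp (12.9%). Over all 93933 gaps the same classes held 20.3%, 11.7% and 12.4%. Both gaps were over 300 bp for 1788 lone calls, 1 gap was for 2121, and neither for 825.

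Just inside and outside the rule the scores of the calls were close. Calls with one distance in the first 10 bp above the lower limit and the other in range had a median score of 0.464 and 3.78 reads, against 0.472 and 4.21 reads for those with one distance in the last 10 bp below it. At the other end, calls with a distance in the last 10 bp below the upper limit had 0.465 and 4.33 reads, against 0.465 and 3.92 reads in the first 10 bp above it. Lone calls with exactly 1 read (1118) had a median score of 0.420. The 1722 calls left out for having no read had 0.407.

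Lone calls were spread over the genome at a low density. The chromosomes held 284 to 557 lone calls each, from 11.4 per Mb on chromosome 4 to 14.6 per Mb on chromosome 3. Of 3714 bins of 100 kb, 1190 or 32.0% held none, and the median was 1. The fullest bin, on chromosome 8 from 21500000 to 21599999, held 8. The number per bin depended on the reads in part through the rule, which asks for a read. With the bins in 5 groups of about equal size by reads, the group with the fewest had 0.930 lone calls per bin, and the other groups had 1.24 to 1.47. Without the requirement the group with the fewest reads had 1.55 calls per bin and the others 1.70 to 1.83. A run of 2 or more adjacent lone calls held 585 of them (12.4%), mostly as pairs (271 runs), with 14 longer runs.

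The score of lone calls came from the signal that also placed the calls and is given as a description only. It ranged from 0.258 to 0.931, with a median of 0.476 and quartiles of 0.402 and 0.588. The median was 0.517 for calls with 1 gap, 0.612 for array calls and 0.478 for other calls. The median of lone calls was below that of calls with 1 gap and array calls on each of the 12 chromosomes. Against other calls their median was lower on 9 chromosomes and higher on 3. Of the 4734 lone calls, 1850 (39.1%) scored above both neighbours and 1143 (24.1%) below both, but the neighbours did not need a read unless they were lone calls themselves. These shares were not measured over all calls or in the other groups, so they cannot be called a trait of lone calls. Of the 6456 calls without the requirement, 34.2% scored above both neighbours and 28.4% below both, and the medians were 0.453 for these calls and 0.450 for their neighbours.

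The single-end library, from the other biological replicate, placed fewer reads on lone calls than on their counterparts. Lone calls had 4.10 ± 3.65 reads within 20 bp of the centre (SD over calls, all with 1 or more reads), against 5.01 ± 4.36 for calls with 1 gap, 6.46 ± 5.15 for array calls and 5.22 ± 4.11 for other calls. The mean of lone calls was 0.817 times that of calls with 1 gap, with a range of 0.763 to 0.885 over the chromosomes. It was 0.634 times that of array calls (0.596 to 0.676) and 0.784 times that of other calls (0.735 to 0.834), so that lone calls were lower in all 3 comparisons on 12 of 12 chromosomes. These means cannot be read against the 2.92 reads of a random position, since calls with no read were left out. Without the requirement the calls with both distances in range had 3.003 ± 3.61 reads, near that of a random position, against 4.06 ± 4.39 for calls with 1 gap, 5.56 ± 5.28 for array calls and 4.23 ± 4.23 for other calls. The library was thinner around lone calls as well. At 500 to 1000 bp from the centre there were 67.2 reads per kb for lone calls, 70.2 for calls with 1 gap, 74.1 for array calls and 83.6 for other calls. Relative to these surroundings, the ratio to other calls was 0.976, with lone calls higher on 4 chromosomes and lower on 8. The ratio was still 0.854 to calls with 1 gap and 0.70 to array calls, and below 1 on every chromosome. Without the requirement of a read the ratio to other calls relative to the surroundings was 0.874 and below 1 on 12 of 12 chromosomes. The calls with both distances in range then had 1.21 times the reads of their own surroundings, which held 60.6 reads per kb. This value was 1.51 for calls with 1 gap, 1.95 for array calls and 1.38 for other calls. A read was present at 73.3% of the calls with both distances in range, against 81.0% of the calls with 1 gap, 86.0% of the array calls and 81.0% of all calls.

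The reads at lone calls followed the score of the calls, although the score comes from the other library. The rank correlation between score and reads over the 4734 lone calls was 0.514 (Spearman's rho, over calls, which are not independent). Calls were put in 4 bands of score, cut at the quartiles over all calls. In the lowest band lone calls had 2.16 ± 1.41 reads and other calls 2.89 ± 1.88. In the highest band they had 7.46 ± 4.94 reads, against 8.38 ± 5.38 for other calls and 8.72 ± 5.71 for array calls. Single lone calls carried few reads. Of all, 1118 had 1 read, 918 had 2, 2316 had 3 to 9 and 382 (8.07%) had 10 or more. Such high numbers were found in 12.6% of other calls and 21.4% of array calls. Reads of both strands were present at 2613 lone calls (55.2%). The 1118 calls with 1 read could not have both, and the share in the other groups was not measured. The sums over both strands were close, at 9777 forward and 9613 reverse reads.

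**Figure D1:**
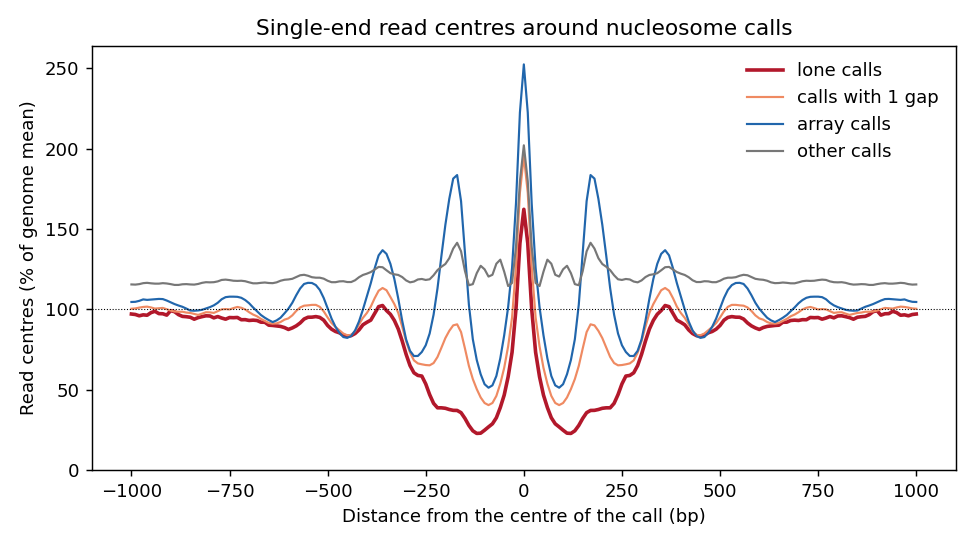
Single-end read centres (5′ ends moved by 73 bp, smoothed over 21 bp) are plotted against the distance from the centre of the call in bp, as percent of the genome mean, for lone calls, calls with 1 gap, array calls and other calls. Lone calls reached 162% at the centre and fell to 22.9% at 120 bp, while array calls went through 51.3% at 90 bp and had a second maximum near 170 bp.

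Read centres formed a peak at the middle of the calls, which the requirement of a read raised. Read centres at the middle of lone calls were at 162% of the genome mean and fell to 22.9% at 120 bp, a contrast of 7.09 times. Without the requirement, the 6456 calls with both distances in range were at 119% in the middle and at 20.6% at 110 bp (5.77 times). For calls with 1 gap the centre was at 195.4% and the lowest point at 40.5% (4.83 times). For array calls the values were 252% and 51.3% (4.92 times), and for other calls, most of which overlap another call, 202% and 114% (1.77 times). Without the requirement the middle was at 158% for calls with 1 gap, 217% for array calls and 164% for other calls, so that the calls with both distances in range had the lowest peak with and without it. Its width midway between the centre and the lowest point in height was 46 bp, the same as for calls with 1 gap and for array calls, against 30 bp for other calls.

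The edges of lone calls were drawn by 35368 single-end 5′ ends within 60 bp of the expected positions, 73 bp to the left of the centre for forward ends and 73 bp to the right for reverse ends. Of these, 32.5% lay within 10 bp of the expected position. The share was 30.9% for calls with 1 gap, 30.6% for array calls and 25.1% for other calls. Lone calls had the higher share on 12 of 12 chromosomes in each comparison, by 1.63 percentage points over calls with 1 gap (0.914 to 3.96), by 1.94 over array calls (0.751 to 4.55) and by 7.40 over other calls (6.37 to 10.2). The required reads are among these ends, and without the requirement the differences were smaller. They were then 1.08 points from calls with 1 gap (0.268 to 3.26), 0.919 from array calls (-0.321 to 3.39, higher on 10 of 12 chromosomes) and 6.70 from other calls (5.53 to 9.31). Among other calls, those that overlap no further call, as lone calls do not, had 29.2%, and the difference from these was 3.34 points. The share was higher where the score was higher, at 27.0%, 30.9%, 31.5% and 35.4% in lone calls from the lowest to the highest band of score. Array calls had 27.6%, 27.9%, 28.4% and 31.6%, so that in the lowest band lone calls were not above them. The share also went with the width of the gaps. It was 34.6% in lone calls with both gaps over 300 bp, 32.1% with 1 such gap and 28.7% with none, and the reads followed in the same order (4.42 ± 3.81, 4.03 ± 3.73 and 3.55 ± 2.97). The 60 bp outside an edge lie in the gaps by which lone calls were chosen. In all these comparisons, a share raised by fewer ends there cannot be told apart from one raised by sharper edges.

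**Figure D2:**
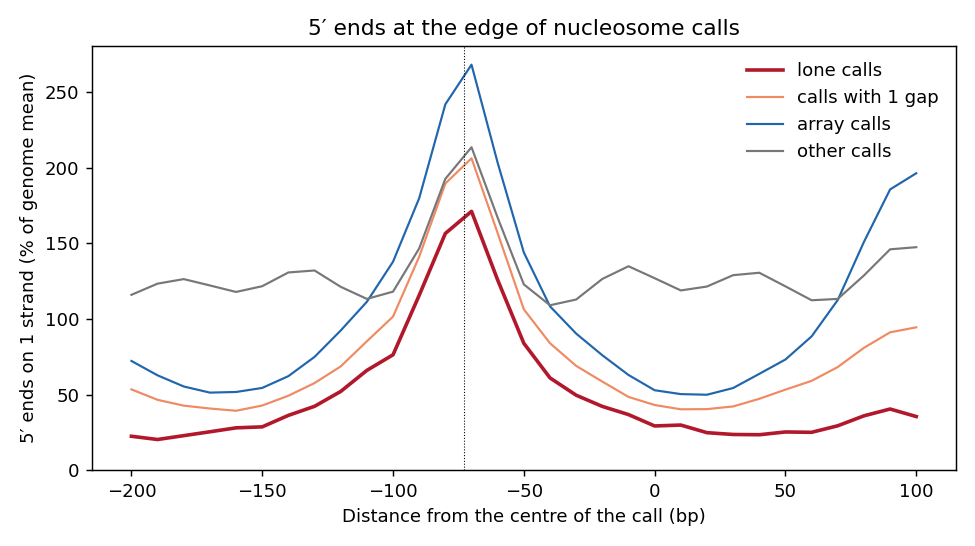
5′ ends on the strand that starts at the edge (forward ends at the left, reverse ends mirrored, smoothed over 5 bp) are plotted against the distance from the centre of the call in bp, as percent of the mean of 1 strand, drawn every 10 bp. The dotted line marks 73 bp. Lone calls had their maximum of 175% 69 bp from the centre, lower than the 274% of array calls at 72 bp, and the lowest level on either side of it.

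The length protected at lone calls was close to that of a nucleosome core, as it was in every group compared. DNA of the size of single nucleosomes was cut from a gel before sequencing. A length near this was thus set by the preparation and is no trait of the lone calls. Forward ends within 40 bp of the left edge were each joined with all reverse ends 100 to 200 bp away, which gave 71669 pairs. The reads are single-end, so a pair combines separate reads and is not a sequenced fragment. The length found most often was 151 bp in lone calls, 149 bp in calls with 1 gap, and 148 bp in array calls and other calls. When repeated reads were counted as 1, it was 148 bp in lone calls. Single chromosomes had an SD of 2.41 bp for lone calls after smoothing over 5 bp, and with this smoothing lone calls were at 150 bp and array calls at 148 bp, within this spread. Short lengths, from 100 to under 130 bp, made up 22.8% of the pairs in lone calls, 24.1% in calls with 1 gap, 24.8% in array calls and 27.4% in other calls. Pairs of unrelated ends can be among them in every group, and their part in these shares was not tested.

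The gaps were depleted in the single-end library too, but they were not empty. In the middle 80 bp of the 9468 gaps beside lone calls there were 23.0 read centres per kb, which is 32.3% of the genome mean and 28.4% to 35.1% on single chromosomes. A gap between adjacent lone calls is counted from each side, in these values as in the distances above. The gaps beside calls with 1 gap had 32.0%. No read was centred in the middle of 38.3% of the gaps beside lone calls. Among 372060 windows of 80 bp placed every kb along the genome this was so in 18.5%. Both gaps were without a centre for 771 lone calls (16.3%), and 1877 (39.7%) had centres in both. The gaps also differed in whether any read was placed there. In the part of a gap over 93 bp from both centres, which the ends of the required reads do not reach, 14.3% of the gaps beside lone calls had no 5′ end on either strand, against 13.3% of windows of 130 bp along the genome. Beside the 1722 calls with no read the share was 44.7%, against 14.0% of windows as wide as these gap parts in the median. Only uniquely placed reads were kept, and the part that this plays in the depletion of the gaps was not tested.

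Wider gaps held a weak maximum of read centres midway between the calls. This was seen in the profiles and then measured on the same reads, as the ratio of centres in the middle 40 bp to those in the same length at 0.3 and 0.7 of the gap. In gaps over 300 and up to 360 bp there were 3856 centres in the middle and 2395 at the sides, a ratio of 1.61. In gaps over 360 bp the numbers were 2467 and 1202, a ratio of 2.05. Each of the 12 chromosomes had a ratio above 1 in both classes. In gaps of up to 300 bp the ratio was 0.707 and below 1 on every chromosome, but the sides are there nearer to the flanking calls. The maximum was low. It stood at 39.7% and 42.1% of the genome mean in the 2 wider classes, with 21.9% and 19.6% at the lowest points between it and the lone call, which itself was at 167% and 178%. Both strands showed it, with ratios of 1.62 for forward and 1.60 for reverse reads over 300 and up to 360 bp. In all 5697 gaps over 300 bp, centres from forward reads had their maximum 3 bp from the middle and those from reverse reads 7 bp from it. Pairs of ends around the middle were most frequent at 149 bp after smoothing over 5 bp, against 150 bp at the lone calls themselves. Since DNA of this size was cut from the gel, the likeness does not tell what lies in the middle. The ratio was 1.76 for gaps over 300 bp beside lone calls and also 1.76 beside calls with 1 gap (1.49 to 2.00 and 1.48 to 1.94 over chromosomes), so that wide gaps of both kinds had it.

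**Figure D3:**
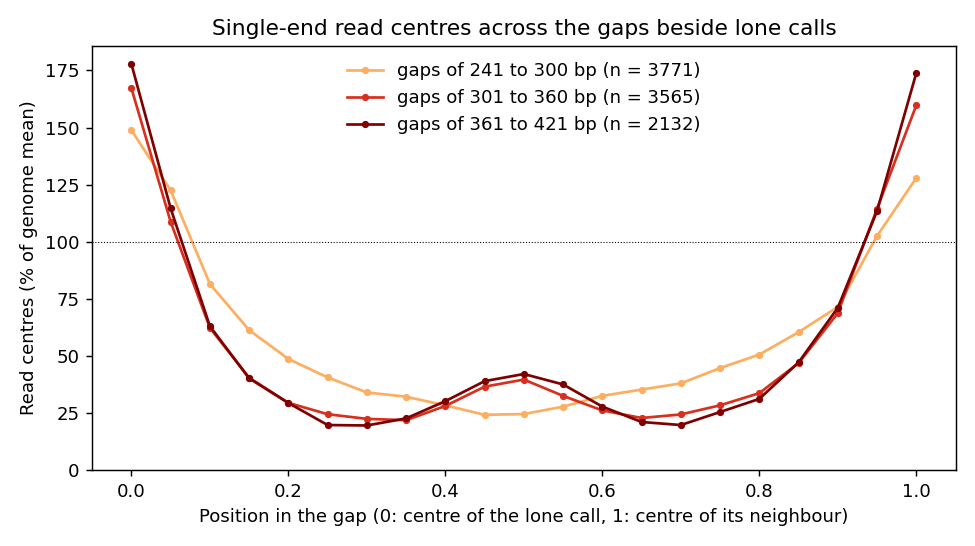
Single-end read centres, as percent of the genome mean, are plotted along the gap from the centre of the lone call (0) to the centre of its neighbour (1), for 3 classes of gap width, in windows of 21 bp. Gaps over 300 bp and gaps over 360 bp had a maximum of 39.7% and 42.1% in the middle, where gaps of up to 300 bp were at 24.6%.

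Beyond the gaps read centres rose and fell with the distance from the neighbouring call. On the outer side of the neighbouring call, read centres fell to a minimum 90 bp from its centre and rose to a maximum at 169 bp, with a further maximum at 359 bp. The swing from minimum to maximum was 46.1% of the mean over 1000 bp, from 40.2% to 60.7% on single chromosomes, and the second swing was 27.3%. Beyond the gap of calls with 1 gap the swing was 44.1% (41.9% to 49.9%), within the spread of the lone calls. Beside array calls, which have no gap and were chosen for even distances, it was 71.0% (69.7% to 74.2%), above the value of every chromosome for lone calls. The maximum there lay at 175 bp. The swing beside other calls was not measured. Around other calls themselves, read centres rose from 115.0% of the genome mean at 140 bp to 141.4% at 170 bp. Some rise is therefore not particular to lone calls. Of the distances from the neighbours of lone calls to the next call outward, 20.97% were 150 to 210 bp, against 10.6% of all distances. A further call overlapped 55.1% of the neighbours, against 76.8% of all adjacent pairs. Overlapping pairs cannot be 150 to 210 bp apart. With fewer of them, the higher share of such distances does not by itself show a more regular order. The neighbours had 3.84 ± 4.04 reads, and 84.0% had 1 or more. No read was required of a neighbour as such, but neighbours that were lone calls themselves had 1 or more by the rule.

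**Figure D4:**
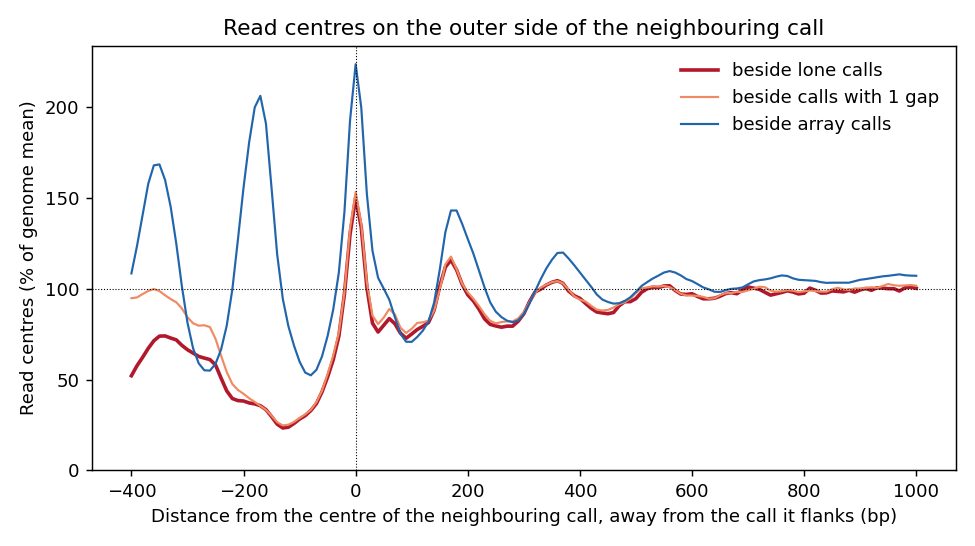
Single-end read centres (percent of the genome mean, smoothed over 21 bp) are plotted against the distance in bp from the centre of the neighbouring call, outward from the lone call, call with 1 gap or array call that it flanks. Beside lone calls the neighbour reached 150%, with further maxima at 169 and 359 bp, close to the curve beside calls with 1 gap and lower than that beside array calls.

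The 3 lone calls with the highest score are extremes and not typical members. Over all lone calls the median score was 0.476 and the median number of reads 3. The first, on chromosome 4 from 311936 to 312056 (TIGR release 5, as deposited), had a score of 0.931 and stood 353 bp and 304 bp from neighbours with scores of 0.754 and 0.851. It had 8 reads, 2 forward and 6 reverse, and 6 of the 8 ends within 60 bp of its edges were within 10 bp. The middle of its left gap held no centre and that of its right gap 5. The second, on chromosome 3 from 11908575 to 11908695, scored 0.905 and had 17 reads, 9 with repeats counted once, with 1 centre in one gap and 0 in the other. The third, on chromosome 5 from 22284683 to 22284803, scored 0.899 but had only 5 reads, and the middle of its left gap held 13 centres. The 3 calls were thus close in score but differed in their reads and in how far their gaps were empty.

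The lone calls with the most reads owed much of their number to repeated reads. The first, on chromosome 11 from 19895689 to 19895809, had 47 reads, 21 forward and 26 reverse, which fell to 16 with repeats counted once. The next, on chromosome 2 from 28663253 to 28663373, had 35 reads and 15 counted once. A call on chromosome 12 from 26264927 to 26265047 followed with 32 and 18. All 3 had high scores, of 0.869, 0.848 and 0.867. Over all lone calls 15.98% of the reads near the centre were repeats, against 17.1% for other calls.

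The calls in the widest free stretches differed in strength. The largest summed distance to both neighbours was 832 bp, around a call on chromosome 9 from 9366636 to 9366756 with a score of 0.482 and 3 reads. The next were 831 bp, on chromosome 10 from 1510242 to 1510362 (score 0.313, 5 reads), and 830 bp, on chromosome 1 from 3319629 to 3319749 (score 0.777, 11 reads). The longest run of adjacent lone calls had 4 members, on chromosome 7 between 18960604 and 18961724. Their distances from the first neighbour to the last were 274, 328, 295, 377 and 352 bp. Their scores were 0.327, 0.542, 0.398 and 0.303 in this order, and they had 2, 8, 2 and 1 reads.

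**Figure D5:**
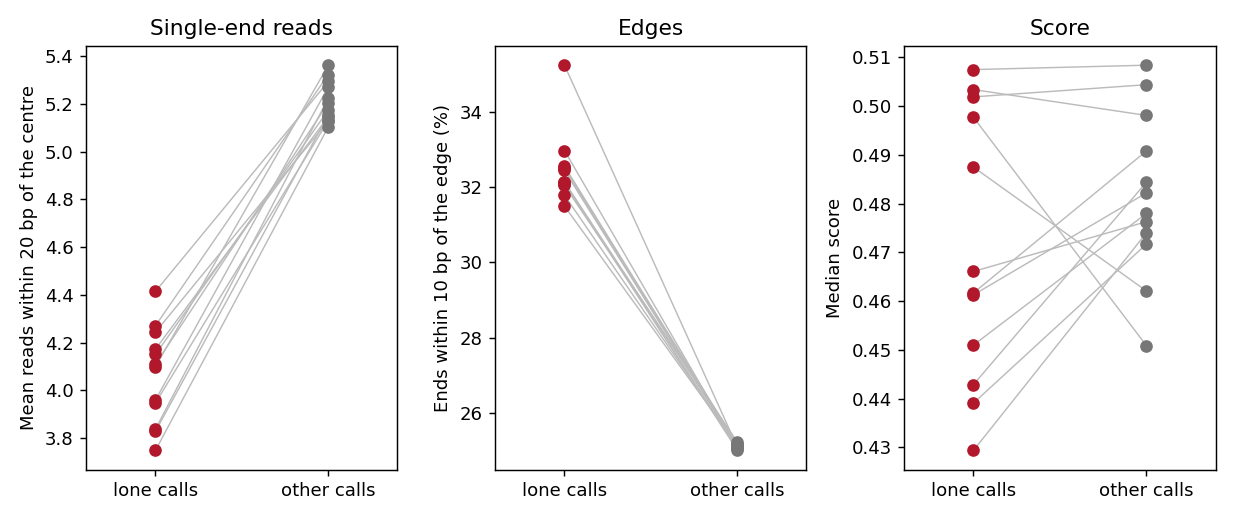
Each pair of points is 1 of the 12 chromosomes, with lone calls on the left and other calls on the right, for the mean number of reads within 20 bp of the centre, the share of ends within 10 bp of the edge in percent, and the median score. Lone calls had fewer reads (3.75 to 4.42 against 5.10 to 5.36) and a higher edge share (31.5% to 35.3% against at most 25.2%) on every chromosome, while the scores overlapped.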

How the data were processed

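Reads of 36 bp were aligned by the authors with MAQ (1 mismatch, unique hits) against TIGR release 5. The deposited single-end positions are 1 line per read. For the calls, the authors ran nucleR on fragments of up to 200 bp, of which only the central 40 bp were kept; the deposited score is theirs, and its definition, like the versions of MAQ and nucleR, is not given in the sources used here. A second, identical list of calls was not used.

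Here, 5′ ends were moved by 73 bp to the centre and counted per base with Python 3.11.15, numpy 2.4.6, pandas 2.3.3 and numba 0.67.0. Distances were taken between centres of adjacent calls. Swing was the maximum at 130 to 240 bp minus the minimum at 60 to 130 bp, smoothed over 21 bp. The measures were checked on simulated data. Members, comparison groups and measures were chosen with earlier results of these data known. Calls named are the 3 with the highest score, the most reads and the largest summed distance, and the longest run. Counting error and repeated reads limit single calls, so results are sums over many calls.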

Additional observations from a re-analysis of the deposited data

How the results depend on the processing

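The rule decides which calls count as lone. Their number was 2698 with 3 or more reads required, 2919 with both limits of distance 20 bp tighter and 7506 with both 20 bp wider, against 4734. It rose to 32515 when only the upper 50% of calls by score were kept, since fewer calls leave wider distances, and of the 2476 lone calls kept 893 still met the rule. The difference in median score from other calls was -0.0853 when only calls that overlap no other were compared, against -0.00207. The ratio of reads to other calls (0.784) was 0.710 without the read requirement and 0.717 against calls that overlap no other. It was 0.745, 0.720, 0.722 and 0.891 within the bands of score from low to high, and 0.976 relative to the reads 500 to 1000 bp away, an alternative added after seeing the data. The difference in edge share (7.40 percentage points) was 4.17 within 5 bp, 9.72 within 15 bp and 3.34 against calls that overlap no other. Without the read requirement, as added after seeing the data, the difference in edge share from array calls (1.94 points) was 0.919, and the share of lone calls that scored above both neighbours (39.1%) was 34.2%. The density in the gaps (32.3% of the mean) was 28.4% without the read requirement, 34.3% with reads counted once, 35.1% for 5′ ends, and 28.5% and 36.9% in the narrowest and widest gaps. The protected length (151 bp) was 148 bp with reads counted once. The swing beyond the gaps (46.1%) was 39.5% with reads counted once and 38.6% smoothed over 41 bp. The causes of these shifts were not tested. Under the settings listed above no result turned its direction over all chromosomes. In the lowest band of score, however, the edge share of lone calls (27.0%) was below that of array calls (27.6%). The maximum in the middle of gaps over 300 bp, itself chosen after seeing the data, was 1.65 with reads counted once. No replicate could be left out, since each form has 1 biological replicate. No paired analysis was possible because replicate 1 gave only reads and replicate 2 only calls. At 4.10 reads per lone call, single calls cannot be ranked.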
